A study of Mus musculus with 9 samples.

Results

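RAW264.7 cells, a mouse macrophage line, that stably carried oligonucleotides with the DNA sequence bound by the transcription factor NFAT5 (decoy) were compared with untreated RAW264.7 cells (control). The 3 samples titled RAW NFAT5-decoy and the 3 titled RAW Control make up 6 of the 9 samples of the series. The other 3 stably expressed an Nfat5-directed shRNA (knock-down) and serve here only to ask where the decoy differs from the hairpin. All 9 were grown in alpha-MEM with fetal bovine serum. A label field is headed with a treatment by the cytokine Il1b but holds only the group descriptions. Apart from that heading, no salt or inflammatory stimulus is named for any group. The purpose given for both manipulations was to find transcripts that depend on NFAT5. No group analysed here carried an unrelated oligonucleotide, so the effects of stable transfection cannot be told apart from those of the NFAT5 sequence. Whether a group's 3 samples came from separate cultures, and whether a transfected line was 1 clone, is not stated. The p-values therefore cover the spread among these samples alone, and that spread may be technical.

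NFAT5, also called TonEBP, is a transcription factor of the Rel family that recognises a TGGAAA core within a longer element, the tonicity-responsive enhancer (TonE). When the surroundings of a cell become salty, it moves to the nucleus and switches on transporters and enzymes that accumulate organic osmolytes. In macrophages it also acts at inflammatory genes downstream of Toll-like receptors. A decoy oligonucleotide offers the protein a competing binding site, so it acts on NFAT5 protein and not on its transcript.

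RNA was measured on Illumina mouse bead arrays with 45281 probes. Of these, 27062 exceeded the median of their array on at least 3 arrays and were tested, and each gene was represented by its brightest such probe. This gave 18830 features, 13716 of them genes with a symbol. Levels are log2 normalised intensities, and a difference is decoy minus control on that scale. A feature was called at a limma adjusted p below 0.05 over all features. The decoy arrays were dimmer than the control arrays. The upper quartile of raw signals was 214 to 237 units in decoy and 319 to 336 units in control, and 24.6% to 26.9% of probes in decoy against 34.1% to 34.9% in control lay above background. The decoy arrays also varied more, with a median SD of 0.18 in decoy and 0.091 in control (log2, n = 3 each).

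In the decoy cells 3174 of 18830 features (16.9%) were higher and 3356 (17.8%) lower than in control. The median difference of all features was 0.024. The change was 2-fold or more in 437 of the higher and 668 of the lower features. The 3 decoy and 3 control arrays did not overlap for 54.7% of all features. Array brightness differed between the groups, and the split between higher and lower calls differed between scalings. Scaling each array to its median gave 1285 higher and 8172 lower with a median of all features of -0.38, and scaling on the 9311 probes above background on all 9 arrays gave 10168 higher and 1569 lower with a median of 0.61. Those 2 scalings differ from each other only by a constant per array. Called under both quantile and median scaling were 955 higher and 3347 lower features. Under all 3 scalings 955 features (5.07%) were higher and 1557 (8.27%) lower, so the third scaling removed falls only. The part of array brightness in other calls was not tested. Each named gene below is said to depend on the scaling where its call was lost. Counts of list members below stand against the all-feature counts. Those are 16.9% higher and 17.8% lower with quantile scaling, 1285 and 8172 of 18830 under median scaling, and 5.07% and 8.27% under all 3. A list count near them is no result about the list.

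Nfat5 itself, which the decoy is not designed to lower, was measured by 4 probes. On the brightest, its level was 11.07, 10.90 and 10.97 on the decoy arrays and 11.58, 11.36 and 11.46 on the control arrays. All decoy values lay below all control values, a difference of -0.49 (SE 0.13, adjusted p = 0.0106), or 1.40-fold lower, and it was called under all 3 scalings. Without control replicate 1 the adjusted p was 0.0651. The next-brightest probe read the other way, at 9.31, 9.24 and 9.36 in decoy and 8.73, 8.55 and 8.45 in control. Its difference was 0.72 (adjusted p = 0.00107 over all probes). The raw signals of that probe were 640, 569 and 509 units in decoy and 752, 685 and 625 units in control, so before scaling it was no higher in decoy. Those of the brightest probe were 2083, 1731 and 1430 units in decoy and 5049, 4591 and 4857 units in control. The opposite direction of the next-brightest probe thus appeared only with scaling, while the decoy arrays were dimmer as a whole. The remaining 2 probes stayed below background on all arrays. With quantile scaling the probes give no single direction for the Nfat5 transcript.

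Of the 11 measured genes of the NFAT family and its phosphatase calcineurin, Nfat5 was the 1 member called. The other 10 differed by -0.09 to 0.39 in the decoy against control, and none passed the test with quantile scaling. Under median scaling 0 of the 11 were called higher and 6 lower, and with scaling on the probes above background on all 9 arrays 3 were higher and 1 lower. The 10 include Nfatc1 and Nfatc3, relatives of NFAT5 that calcineurin activates, and Rcan1, an inhibitor of calcineurin.

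The classical targets of NFAT5 are genes that protect against osmotic stress, and with quantile scaling they did not move together. Of 11 measured osmoprotective targets 1 rose and 4 fell, with a median of -0.32. That median became 0.30 when arrays were scaled on the probes above background on all 9, where 4 were higher and 2 lower. Under median scaling 0 were higher and 6 lower, and under all 3 scalings 0 were higher and 2 lower, so the split depends on the scaling. Only 6 of the 11 were above background on at least 3 arrays. The median of -0.32 is the value of Hspa1b, which was below background on every array, so it does not describe the list. Aldose reductase (Akr1b3) had no probe under its symbol. The largest fall was in S100a4, a calcium-binding protein of cell motility. It read 10.63, 10.74 and 10.26 in decoy and 12.80, 12.77 and 12.93 in control. Every decoy value was more than 1 unit below every control value, a 4.89-fold fall (difference -2.29, SE 0.16, adjusted p = 1.21e-07). Akr1b8, an aldose reductase-like enzyme, was 1.67-fold lower (adjusted p = 0.0194), a call that was lost with control replicate 1, control replicate 3 and decoy replicate 2 left out in turn (adjusted p = 0.0515, 0.0634 and 0.0627) and when arrays were scaled on the probes above background on all 9. Pnpla6, the phospholipase that makes the osmolyte glycerophosphocholine, read 9.13, 9.00 and 9.05 in decoy and 9.80, 9.59 and 9.61 in control. It was 1.52-fold lower (adjusted p = 0.00307), and both of its probes were called lower. Aqp1, a water channel, was also called lower, but it was below background on all decoy arrays and on 1 control array, so no fold is given. Its sign turned to 0.244 with scaling on the probes above background on all 9 arrays and to 0.121 with no probe filter.

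The betaine transporter Slc6a12 went the other way. It read 14.54, 14.61 and 14.14 in decoy and 13.34, 13.07 and 13.17 in control, with no overlap between the groups. It was 2.35-fold higher (difference 1.23, SE 0.15, adjusted p = 2.74e-05), although under median scaling the difference was 0.39 and not called. The taurine transporter Slc6a6 read 13.55, 13.57 and 14.16 in decoy and 14.00, 13.82 and 13.81 in control, and the groups overlapped (adjusted p = 0.657). Slc38a2, a transporter of neutral amino acids, differed by 0.27 and was not called with quantile scaling (adjusted p = 0.152). Under median scaling its difference was -0.698. The myo-inositol transporter Slc5a3 and the chaperone genes Hspa1a and Hspa1b were not above background on any array of either group. A difference in these last genes could not be seen on these arrays.

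Slc6a12 and Pnpla6, called in opposite directions with quantile scaling, are the measured osmoprotective genes whose promoter windows hold the longer TonE element. RefSeq promoter windows (250 bases before to 50 bases after a start, build GRCm38.p6) were read for 11075 of the 13716 genes tested. Excerpts around both elements follow, 5′ to 3′ on the gene's strand, with the TonE match in capitals (as its reverse complement in Pnpla6). The Slc6a12 excerpt is chr6:121342454-121342554, plus strand, and the Pnpla6 excerpt is chr8:3515423-3515523, plus strand.
Slc6a12: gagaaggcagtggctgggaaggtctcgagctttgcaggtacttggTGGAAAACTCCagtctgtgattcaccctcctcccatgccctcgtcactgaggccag
Pnpla6: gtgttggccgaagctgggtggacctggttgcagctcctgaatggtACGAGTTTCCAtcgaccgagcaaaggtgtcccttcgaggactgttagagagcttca
The TonE consensus was present in 2 of 16 windows of the osmoprotective list (12.5%), against 3.88% of the windows of all genes tested and 4.96% of all windows in the table.

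Shares of promoters with the NFAT5 core were set side by side for genes that rose and fell. The core TGGAAA, on either strand, was in 19.0% of 2652 windows of genes higher in decoy, in 16.4% of 2422 windows of genes lower in decoy and in 17.8% of 13933 windows of all genes tested. The longer TonE consensus, which contains the core, was in 4.49%, 3.26% and 3.88% of the same windows. Genes with 2 or more measured probes were also taken where all probes were called one way. Of their windows, 3.61% of 194 (higher) and 3.88% of 206 (lower) held the consensus. Sequences are printed for the 2 genes each way with such an element whose least-changed probe moved most, because a changed transcript and a TonE match meet there. Sh3kbp1, an adaptor of receptor endocytosis (chrX:159942506-159942606, plus strand), and Sumo3, a ubiquitin-like modifier (chr10:77613640-77613740, plus strand), were 2.28-fold and 1.81-fold higher in decoy (adjusted p = 0.000222 and 0.000802). Both calls were lost under median scaling, where the difference of Sumo3 was -0.02. Ndufb10, a subunit of respiratory complex I (chr17:24724519-24724619, minus strand), and Psme3ip1, a partner of a proteasome activator (chr8:94601677-94601744, minus strand), were 4.00-fold and 1.71-fold lower (adjusted p = 1.65e-06 and 0.00329). The TonE match is in capitals, as its reverse complement in Sumo3 and Ndufb10.
Sh3kbp1: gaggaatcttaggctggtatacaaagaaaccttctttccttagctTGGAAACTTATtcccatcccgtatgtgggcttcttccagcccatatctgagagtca
Sumo3: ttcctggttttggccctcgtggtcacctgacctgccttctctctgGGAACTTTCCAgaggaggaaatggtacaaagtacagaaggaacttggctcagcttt
Ndufb10: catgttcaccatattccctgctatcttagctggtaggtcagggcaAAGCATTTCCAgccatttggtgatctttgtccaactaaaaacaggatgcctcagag
Psme3ip1: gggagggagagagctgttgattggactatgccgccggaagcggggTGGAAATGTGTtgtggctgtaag
A match is a string of letters and does not show that NFAT5 binds there.

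NFAT5 targets known from stimulated macrophages were also split with quantile scaling. Of 10 measured, 4 rose and 1 fell (median 0.37). Only 5 of the 10 were above background on at least 3 arrays. The median lies between Tnf (0.39) and Nos2 (0.35), and Nos2 was below background. Under all 3 scalings 2 rose, Cxcl10 and the below-background Lcn2, and 0 fell. With each decoy or control array left out in turn 2 to 5 rose. The chemokine Cxcl10 read 7.95, 8.20 and 8.25 in decoy and 7.15, 7.07 and 7.10 in control, 2.04-fold higher (adjusted p = 0.000199). Vegfc, a lymphatic growth factor known as an NFAT5 target in macrophages under salt, was 1.91-fold higher (9.80, 9.88 and 9.58 in decoy, 8.77, 8.85 and 8.85 in control, adjusted p = 0.000154). Cxcl2, a neutrophil attractant, was 2.09-fold higher (adjusted p = 0.00882). The calls of Vegfc and Cxcl2 were lost under median scaling. That of Cxcl2 was also lost without either control replicate 3 or the first decoy array (adjusted p = 0.0503 and 0.0525), and with the mean of its probes its difference was 0.141 (adjusted p = 0.763). Lcn2, an iron-sequestering protein, was the fourth, with both groups below background on all arrays. Its call was lost with control replicate 3, decoy replicate 2 and decoy replicate 3 left out in turn (adjusted p = 0.0580, 0.0636 and 0.0503). The monocyte attractant Ccl2 was lower (-1.02, adjusted p = 0.000169) and below background on all decoy arrays, and its call was lost when arrays were scaled on the probes above background on all 9. Tnf read 12.12, 11.58 and 12.21 in decoy and 11.89, 11.23 and 11.63 in control and was not called (adjusted p = 0.125). Nos2 and Il6 were below background on every array.

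Of the lists with 10 or more measured members, interferon-stimulated antiviral genes had the highest median difference with quantile scaling. Under the other scalings the medians of interferon-inducible GTPases (0.33 and 1.33) and of the inflammatory NFAT5 targets (0.0207 and 1.016) were above theirs (0.0181 and 1.014). Of those 2 lists only 6 of 11 and 5 of 10 members were above background, against 34 of 41 antiviral genes. Of the 41 antiviral genes measured, 23 rose and 1 fell, against 16.9% and 17.8% of all features. Their median difference was 0.57. With each decoy or control array left out in turn, 20 to 24 rose and 1 to 3 fell. Under all 3 scalings 11 remained higher and 1 lower. Less the all-feature median, the list's own median was 0.55 with quantile scaling and 0.40 with median scaling. The third scaling differs from median scaling only by a constant per array, so it gives the same 0.40 by construction. On that scale the lists ran from -1.36 (mitochondrial DNA-encoded) to 0.71 (interferon-inducible GTPases). Among markers mostly below background, 7 of mast cells read 0.58 and 8 of fibroblasts 0.68, while 6 of endothelial cells read 0.25. The part of brightness in the 0.40 was not tested. Under median scaling itself 12 of the 41 interferon-stimulated genes were higher and 8 lower, against 1285 and 8172 of all 18830 features.

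Usp18, a protease that removes the ubiquitin-like protein ISG15 and damps interferon receptor signalling, rose most in this list and led all genes whose every probe was higher. It read 12.03, 12.24 and 12.17 on the decoy arrays and 9.84, 9.62 and 9.90 on the control arrays. The groups were separated by over 2 log2 units, a 5.13-fold rise (difference 2.36, SE 0.15, adjusted p = 5.39e-08). Its second probe rose 8.24-fold, at 10.40, 10.49 and 10.97 in decoy and 7.70, 7.61 and 7.42 in control. Rsad2, the antiviral protein viperin, read 9.22, 9.38 and 9.02 in decoy and 7.15, 6.98 and 7.13 in control, 4.36-fold higher. Isg15 itself read 9.39, 9.43 and 9.53 in decoy and 7.87, 7.54 and 7.64 in control, 3.40-fold higher (adjusted p = 1.21e-06). Parp14, an ADP-ribosyltransferase, and Ifit3, which inhibits viral RNA translation, rose 3.43-fold and 3.14-fold. Eif2ak2, the RNA-activated kinase PKR, rose 2.98-fold, and Oasl2, of the oligoadenylate synthetase family, at least 2.96-fold, being below background on all control arrays. All of these were called under each of the 3 scalings, of which the third removed no rise among all features. For each the 3 decoy arrays lay above the 3 control arrays, and the groups did not overlap for 54.7% of all features.

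**Figure D1:**
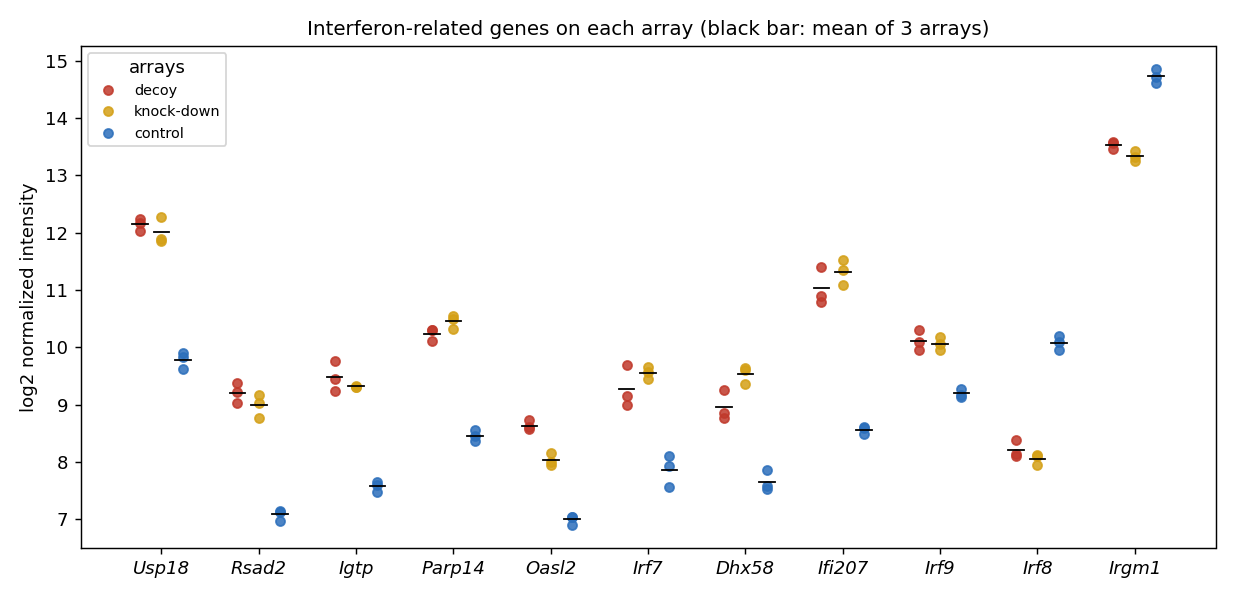
Log2 normalised intensity of 11 interferon-related genes on each array, with decoy, knock-down and control arrays side by side and a black bar at the mean of 3 arrays. In 9 of the genes the 3 decoy arrays lie above the 3 control arrays, and in Irf8 and Irgm1 they lie below. The groups did not overlap for 54.7% of all features tested.

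Interferon-inducible GTPases, which attack the vacuoles of intracellular pathogens, had 4 of 11 measured members higher and 1 lower, and 3 and 1 under all 3 scalings. Igtp read 9.24, 9.44 and 9.76 in decoy and 7.59, 7.48 and 7.65 in control (3.75-fold), and Irgm2 rose 2.71-fold. Their relative Irgm1 gave opposite answers on its probes. The brightest read 13.57, 13.46 and 13.59 in decoy and 14.72, 14.86 and 14.61 in control, 2.28-fold lower, while another was 2.55-fold higher (adjusted p = 3.81e-05 over all probes). The mean over its probes was 0.128 and not called (adjusted p = 0.439). All 5 measured PYHIN genes, a family of DNA-binding and inflammasome proteins, were called with quantile scaling, 4 of them higher. Under median scaling 1 was higher and 1 lower, and under all 3 scalings 1 was higher and 0 lower. Ifi207 rose 5.53-fold (10.90, 10.79 and 11.41 in decoy, 8.61, 8.59 and 8.49 in control), and the DNA sensor Aim2 1.93-fold, with the call of Aim2 lost under median scaling (-0.05).

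The regulators of the interferon response were divided. Of 20 IRF and STAT genes and their kinases, 3 rose and 4 fell (1 and 3 under all 3 scalings). With quantile scaling these counts are near the shares of all features (16.9% higher and 17.8% lower). Irf7, the inducible master regulator of interferon genes, read 9.00, 9.16 and 9.69 in decoy and 7.56, 8.10 and 7.92 in control, a 2.68-fold rise (adjusted p = 3.93e-05). Irf9, the DNA-binding subunit of the interferon-activated complex, rose 1.90-fold with both probes called, but its difference was -0.08 under median scaling. Irf8, a factor of the macrophage lineage, fell clearly. Its values were 8.39, 8.14 and 8.10 in decoy and 9.95, 10.20 and 10.09 in control, 3.67-fold lower (adjusted p = 2.44e-07). Tyk2, a kinase of the interferon receptor, was 1.99-fold lower on its brightest probe, with its other 2 probes not called. Among 22 nucleic acid sensors 7 rose and 2 fell, but 3 were higher and 11 lower under median scaling. Median scaling gave 1285 higher and 8172 lower of all 18830 features. Dhx58, the RNA sensor LGP2, rose 2.47-fold with all 3 probes called, and Samhd1, which depletes nucleotides needed by viruses, was 1.86-fold lower.

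The interferon-stimulated response element (ISRE), the site bound by IRF factors, contains repeats whose core can be written GAAANNGAAA. That core, on either strand, was in 39.5% of 38 promoter windows of the interferon-stimulated list. It was in 4.07% of windows of genes higher in decoy, 2.60% of those lower and 3.16% of all genes tested. The order was reversed for genes with 2 or more measured probes all called one way. There it was in 1.55% of 194 windows of genes higher and 3.88% of 206 windows of genes lower. The NFAT5 core TGGAAA was in 36.8% of the 38 windows of the interferon-stimulated list, and 7 of them held both cores. The longer TonE consensus was in 2.63% of these 38 windows, against 3.88% of the windows of all genes tested. Excerpts of 4 genes that rose show the element, with every match of the ISRE core in capitals (as its reverse complement in Rsad2 and Ifit3). Isg15 holds 3 overlapping matches, Ifit3 holds 2, and Rsad2 and Eif2ak2 hold 1 each. The NFAT5 core in the Isg15 excerpt is left in lower case. They come from chr12:26456518-26456617, minus strand (Rsad2), chr4:156200842-156200941, minus strand (Isg15), chr19:34583362-34583461, plus strand (Ifit3) and chr17:78882523-78882599, minus strand (Eif2ak2).
Rsad2: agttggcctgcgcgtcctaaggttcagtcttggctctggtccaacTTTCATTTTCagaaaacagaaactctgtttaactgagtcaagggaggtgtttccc
Isg15: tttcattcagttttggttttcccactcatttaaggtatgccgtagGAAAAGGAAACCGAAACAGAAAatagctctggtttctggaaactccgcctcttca
Ifit3: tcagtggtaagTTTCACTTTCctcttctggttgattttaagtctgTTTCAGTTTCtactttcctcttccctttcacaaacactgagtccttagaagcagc
Eif2ak2: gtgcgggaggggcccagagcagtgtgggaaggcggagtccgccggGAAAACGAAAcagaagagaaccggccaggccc

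Of 24 cytokine and receptor genes 4 rose and 4 fell (2 and 1 under all 3 scalings). These 4 each way are near the shares of all features (16.9% higher and 17.8% lower). Of 15 chemokine genes 5 rose and 3 fell (2 and 5 under median scaling). Il1rn, the antagonist of the interleukin-1 receptor, read 9.16, 9.32 and 9.56 in decoy and 7.35, 7.41 and 7.35 in control. It rose 3.94-fold (adjusted p = 2.44e-07), and both probes were called. Ccl4, a chemokine for monocytes and T cells, read 14.25, 14.67 and 14.42 in decoy and 12.95, 12.40 and 12.20 in control, 3.82-fold higher, also with both probes called. Among Toll-like receptors and adaptors 6 of 19 rose and 3 fell, but 0 were higher and 7 lower under median scaling, and 0 higher and 2 lower under all 3 scalings. The endotoxin receptor Tlr4 was 1.80-fold higher (-0.15 and not called under median scaling). Of 14 NF-kB subunits and inhibitors 1 rose and 0 fell, but 0 were higher and 10 lower under median scaling. Across all 18830 features median scaling gave 1285 higher and 8172 lower.

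In antigen presentation, 8 of 26 MHC class I and processing genes rose and 3 fell. Under median scaling 3 were higher and 9 lower, and under all 3 scalings 3 were higher and 1 lower. The shares of all features were 16.9% and 17.8% with quantile scaling and 5.07% and 8.27% under all 3. Median scaling gave 8172 lower of 18830. Calr, a chaperone that loads class I molecules, rose 3.01-fold (11.89, 11.80 and 12.62 in decoy, 10.59, 10.50 and 10.46 in control), and this was called under all 3 scalings. H2-M3, a class I molecule that presents formylated peptides, rose 2.44-fold, Tapbp, the tapasin gene, 2.01-fold and the immunoproteasome subunit Psmb8 1.90-fold. These last 3 calls were lost under median scaling.

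Macrophage markers were present in both groups. Of 29 measured macrophage identity genes 26 were above background, with a summed linear intensity of 281706 to 296362 in decoy and 290782 to 295247 in control. Within the list 6 rose and 11 fell (median -0.18, but 0.11 with scaling on the probes above background on all 9 arrays), and 1 rose and 8 fell under all 3 scalings. Tyrobp, the ITAM adaptor that couples many activating receptors, read 11.19, 10.67 and 10.97 in decoy and 12.77, 12.84 and 12.55 in control, 3.43-fold lower (adjusted p = 0.000391). Sirpa, the inhibitory receptor for CD47, was 2.10-fold lower on its brightest probe and called higher on another. Ctsd, a lysosomal protease, was at least 1.65-fold lower, being below background on all decoy arrays. Lyz2, the lysozyme of macrophages, was 2.12-fold higher on its brightest probe, with saturation on some decoy arrays, and its other 2 probes were not called.

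Fc receptors and genes of ITAM signalling changed in both directions, with 13 of 29 higher and 8 lower (3 and 12 under median scaling). Trem3 and Clec5a, receptors that signal through ITAM adaptors, rose 3.04-fold and 3.23-fold, though 2 of the 4 probes of Clec5a were called lower and the mean of its probes was not called. Lilrb4a, an inhibitory receptor, was 1.92-fold higher, a call lost under median scaling (-0.07). Sirpb1a, of the same receptor class as Sirpa, was at least 1.45-fold higher, being below background on all control arrays and on 2 decoy arrays. Axl, a receptor that recognises dying cells, read 8.68, 8.67 and 8.38 in decoy and 9.98, 9.89 and 10.01 in control, 2.62-fold lower (adjusted p = 2.12e-05). Ptpre, a tyrosine phosphatase, read 11.38, 10.31 and 10.22 in decoy and 13.23, 13.25 and 13.42 in control on its brightest probe, 6.34-fold lower. Another Ptpre probe was 1.44-fold higher (adjusted p = 0.0114 over all probes) and the third measured one did not pass.

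The Bcl2a1 genes, anti-apoptotic members of the BCL2 family, held the largest fall among the genes named here. Bcl2a1b read 9.70, 9.43 and 9.46 in decoy and 12.59, 12.57 and 12.52 in control, an 8.17-fold fall (difference -3.03, SE 0.15, adjusted p = 7.28e-09). Bcl2a1d read 10.52, 9.86 and 10.12 in decoy and 12.70, 12.57 and 12.66 in control (5.56-fold), with both probes lower, and Bcl2a1c was 1.99-fold lower on its brightest probe (-0.382 and adjusted p = 0.0637 with the mean of its probes). These copies are nearly identical in sequence, so their probes may measure the same transcripts and do not count as separate genes. Of 14 anti-apoptotic genes in all, 4 rose and 4 fell (0 and 4 under all 3 scalings). The falls include Bcl2a1b, Bcl2a1d and Bcl2a1c, so they are not 4 separate results. Of 20 pro-apoptotic genes 6 rose and 3 fell, but 0 were higher and 11 lower under median scaling. Of all 18830 features, 1285 were higher and 8172 lower under median scaling.

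Several lists of energy metabolism held more falls than rises. Transcripts encoded by mitochondrial DNA had a median difference of -0.92 over 7 measured, and 4 fell under all 3 scalings. COX2, a subunit of cytochrome oxidase, read 10.75, 10.18 and 10.79 in decoy and 12.93, 12.91 and 13.44 in control (5.75-fold lower). ATP6, of the ATP synthase, read 11.83, 11.38 and 11.86 in decoy and 13.76, 13.80 and 14.02 in control (4.51-fold lower). The complex I subunits ND1 and ND4 were 3.75-fold and 1.89-fold lower. CYTB, of complex III, was lower by -0.51 in difference and did not pass the threshold (adjusted p = 0.0504). It was saturated on all control arrays.

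Nuclear genes of oxidative phosphorylation had 26 of 68 members lower and 9 higher, with a median of -0.07 that became 0.05 with scaling on the probes above background on all 9 arrays. Under all 3 scalings 15 were lower and 1 higher. Ndufb10, of complex I, read 9.10, 8.64 and 8.28 in decoy and 10.52, 10.67 and 10.83 in control (4.00-fold lower), and both probes fell. Cox6c of complex IV, Sdhd of complex II and Atp5a1 of the ATP synthase were 3.36-fold, 3.26-fold and 2.39-fold lower. In the citric acid cycle 11 of 25 genes fell and 2 rose (median -0.39), and 8 fell under all 3 scalings. Mdh2, the mitochondrial malate dehydrogenase, was 3.72-fold lower and citrate synthase Cs 2.48-fold lower. Idh1, the cytosolic isocitrate dehydrogenase that makes NADPH, was one of those that rose, at 12.18, 12.16 and 12.65 in decoy and 10.71, 10.18 and 10.52 in control (3.62-fold higher). Of 19 glycolytic genes 4 rose and 5 fell, but 0 were higher and 11 lower under median scaling. That scaling gave 1285 higher and 8172 lower of all 18830 features. Aldolase Aldoa was 3.04-fold lower and the phosphofructokinase Pfkp 2.56-fold higher (not called under median scaling).

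Cytosolic ribosomal protein genes had 23 of 53 members lower and 2 higher (median -0.30, but 0.06 with scaling on the probes above background on all 9 arrays), and 16 lower and 0 higher under all 3 scalings. Less the all-feature median, the list's own median was -0.32 with quantile scaling and -0.56 with median scaling. By construction the third scaling gave the same as median scaling. Nuclear oxidative phosphorylation (-0.57) and glycolysis (-0.55) read about the same under median scaling, where all lists ran from -1.36 to 0.71. Rpl29 and Rpl32 were 2.73-fold and 2.16-fold lower, and Rps21 at least 2.54-fold lower, being saturated on all control arrays. Rpl32 was saturated on 2 of them. A second probe of Rpl29 was called higher. Of the 14 ribosomal genes with 2 or more measured probes, 2 were lower and 0 higher on all of them. Eef2, the factor that moves the ribosome along messenger RNA, went the other way on all 3 probes, at 11.53, 11.64 and 13.00 in decoy and 10.23, 10.03 and 10.20 in control (3.73-fold higher), with decoy replicate 3 well above the other decoy arrays. Mitochondrial ribosomal proteins were divided, with 23 of 72 higher and 19 lower, and 0 higher and 14 lower under all 3 scalings.

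**Figure D2:**
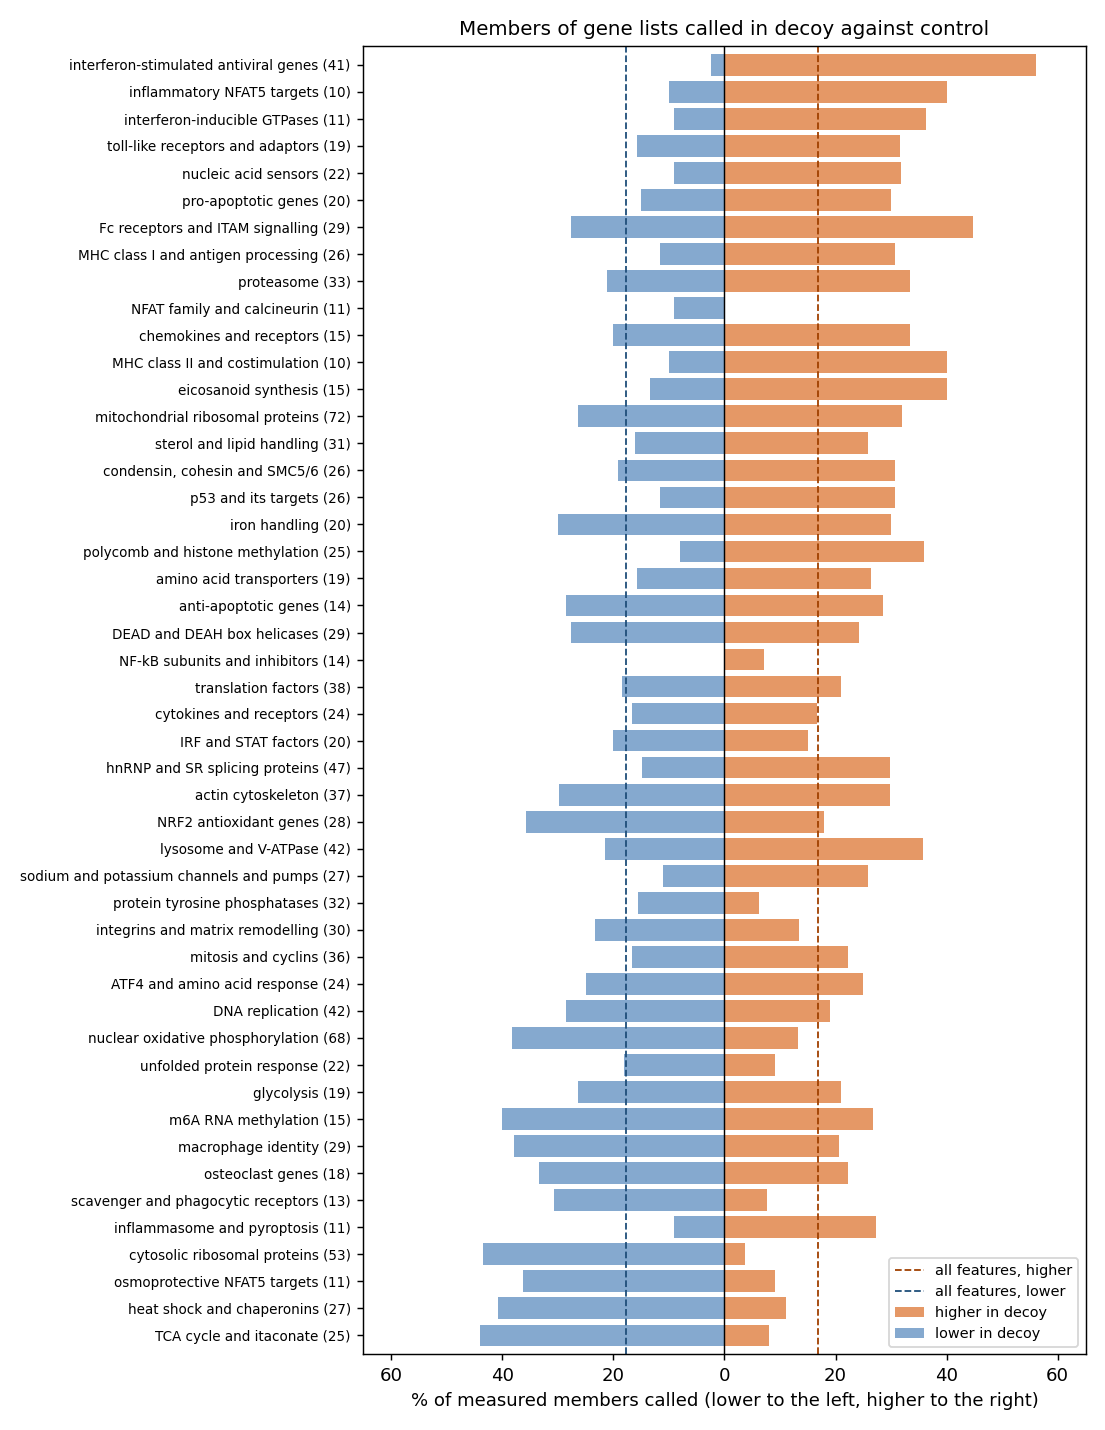
Share of the measured members of each gene list called in decoy against control, lower to the left and higher to the right, for lists of 10 or more measured members (number in parentheses), ordered by their median difference with quantile scaling. Dashed lines mark the 16.9% of all features that were higher and the 17.8% that were lower. Interferon-stimulated genes stand at the top with 23 of 41 higher, and the citric acid cycle genes at the bottom with 11 of 25 lower.

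Of 27 heat shock and chaperonin genes 11 fell and 3 rose (median -0.34), and 9 fell under all 3 scalings. Hspb7, a small heat shock protein, read 7.66, 7.67 and 7.55 in decoy and 10.07, 9.92 and 10.17 in control, 5.36-fold lower. Hspa4 and Hspe1, a large chaperone and the mitochondrial cochaperonin, were 2.10-fold and 1.80-fold lower. Of 28 antioxidant genes that the factor NRF2 controls 10 fell and 5 rose (15 and 2 under median scaling). Thioredoxin Txn1 was 3.72-fold lower and ferritin light chain Ftl1 at least 2.29-fold lower (saturated on all control arrays), while the glutathione transferase Gstp1 was 2.76-fold higher. Atf4, the driver of the amino acid response, read 11.74, 11.79 and 11.33 in decoy and 13.55, 13.21 and 13.45 in control (3.44-fold lower on its brightest probe, both probes lower). Of the 24 genes of its response list 6 rose and 6 fell (1 and 14 under median scaling). The asparaginyl-tRNA synthetase Nars was 2.00-fold lower, and the stress regulators Ddit3 and Trib3 were 2.77-fold and 2.00-fold higher, Trib3 not under median scaling.

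The proteasome, which degrades ubiquitinated proteins, had 11 of 33 genes higher and 7 lower, but 1 higher and 17 lower under median scaling. Over all 18830 features median scaling gave 1285 higher and 8172 lower. Psmb5, a catalytic subunit, read 8.99, 9.19 and 9.33 in decoy and 10.98, 11.34 and 11.12 in control (3.93-fold lower), and Psmd11, of the regulatory cap, was 3.09-fold lower. Psmd5, an assembly factor, rose 3.11-fold and the core subunit Psma7 1.90-fold, but Psma7 was not called under median scaling. Sterol synthesis genes were likewise split, with 8 of 31 sterol and lipid genes higher and 5 lower (1 and 21 under median scaling). Nsdhl, a demethylating dehydrogenase of cholesterol synthesis, rose 3.42-fold. Cyp51 and Insig1 rose 2.42-fold and 2.54-fold but not under median scaling, and Msmo1 was 2.60-fold lower.

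RNA-binding proteins held several large changes. Of 47 hnRNP and SR splicing genes 14 rose and 7 fell, and 6 rose and 4 fell under all 3 scalings. Hnrnpk read 12.18, 12.30 and 12.61 in decoy and 9.99, 9.94 and 9.99 in control (5.24-fold higher), with 2 of its 3 probes called higher and the third not called. The splicing regulators Srek1 and Clk1 rose 5.32-fold and 3.96-fold. Zc3h13, which anchors the complex that methylates adenosine in RNA, read 9.46, 9.22 and 9.71 in decoy and was below background on all control arrays (at least 5.26-fold higher). Hnrnpa2b1 showed how far 2 probes of a gene can part. Its brightest rose 6.78-fold and the other was 1.94-fold lower (adjusted p = 0.000357 over all probes). Hnrnpd, which binds unstable messenger RNAs, was at least 2.64-fold lower. Among 29 RNA helicases of the DEAD and DEAH families 7 rose and 8 fell (2 and 20 under median scaling). Of all features 16.9% were higher and 17.8% lower (1285 and 8172 of 18830 under median scaling). Ddx5 read 9.37, 9.30 and 10.60 in decoy and 7.23, 7.22 and 7.47 in control (5.46-fold higher), and Ddx10 was 3.14-fold higher.

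Chromatin and cell cycle genes also split within lists. The shares of all features were 16.9% higher and 17.8% lower (1285 and 8172 of 18830 under median scaling). Of 25 polycomb and histone methylation genes 9 rose and 2 fell, but 3 were higher and 12 lower under median scaling, and 3 higher and 2 lower under all 3 scalings. Ezh2, the methyltransferase of polycomb complex 2, read 11.12, 11.29 and 11.13 in decoy and 8.37, 8.41 and 8.35 in control on its brightest probe (7.01-fold higher), and its second probe was not called. Rbbp7, a histone-binding partner, rose 4.10-fold with 3 of 4 probes called. Of 42 DNA replication genes 8 rose and 12 fell (0 and 31 under median scaling). The clamp loader Rfc4, the polymerase Pole and the ligase Lig1 were 3.64-fold, 2.39-fold and 2.59-fold lower. Mcm7, of the replicative helicase, was 5.40-fold lower on 1 probe and 3.85-fold higher on the other. Cyclins Ccnd2 and Ccne2 rose 3.01-fold and 3.89-fold, and the spindle checkpoint kinase Bub1b was 2.15-fold lower. In the condensin, cohesin and SMC5/6 complexes, which fold and repair chromosomes, 8 of 26 rose and 5 fell (1 and 13 under median scaling). Smc2 rose at least 3.87-fold, whereas its condensin partner Ncapd2 fell on all 3 probes, at 10.33, 9.95 and 9.73 in decoy and 11.84, 11.76 and 11.81 in control (3.49-fold on the brightest). Smc5 was 2.78-fold lower on its brightest probe and lower on both.

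Since probes of a gene often disagreed, genes with 2 or more measured probes were also taken by the calls of all of them. Of 3102 such genes 179 (5.77%) were higher on every probe and 186 (6.00%) lower on every probe. Another 409 had probes called in opposite directions, and 818 had no probe called. For the 2 brightest probes alone, 468 genes had both called in the same direction and 251 in opposite directions.

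**Figure D3:**
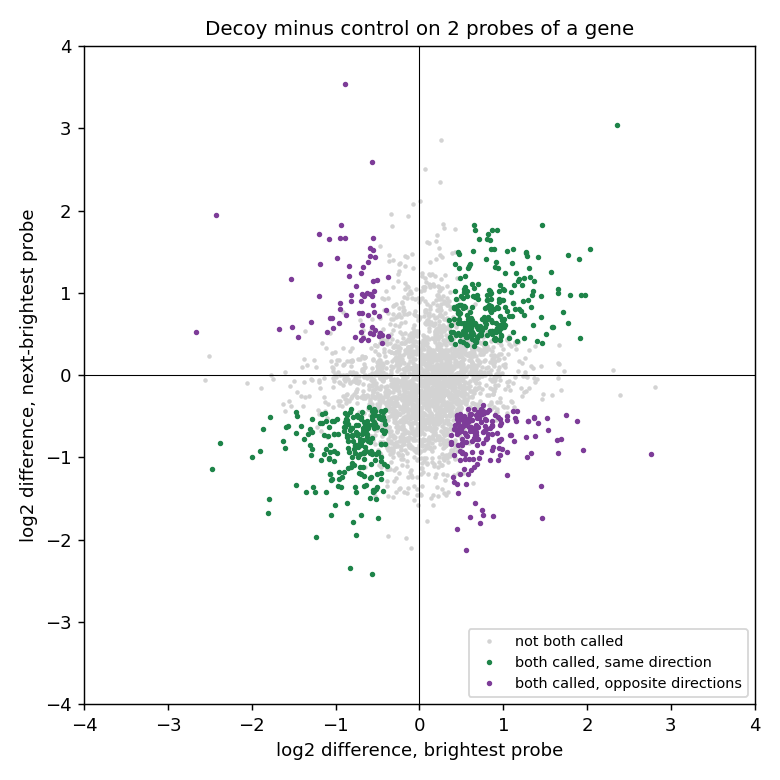
Decoy minus control difference (log2) on the brightest probe of a gene (horizontal) and on its next-brightest probe (vertical), for 3102 genes with 2 or more measured probes. Green points are the 468 genes with both probes called the same way, purple points the 251 called in opposite directions, and grey points the rest.

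Ranked by the probe that changed least, Usp18 led the genes higher on every probe and Ncapd2 those lower on every probe. After Usp18 came Net1, an exchange factor for the GTPase RhoA, at 9.59, 9.51 and 9.70 in decoy and 8.18, 8.08 and 8.16 in control (2.75-fold). Anxa3, a phospholipid-binding annexin, read 11.37, 11.54 and 11.51 in decoy and 10.02, 10.22 and 9.92 in control (2.67-fold). Bpnt1, a phosphatase of the sulfation pathway, and Dok1, an adaptor that restrains tyrosine kinase signalling, rose 2.41-fold and 2.40-fold. Khdrbs1, the RNA-binding protein Sam68, read 11.77, 11.70 and 12.02 in decoy and 10.31, 10.27 and 10.20 in control (2.97-fold). Slc1a5, a glutamine transporter, was at least 2.00-fold higher. Tmem38b, a cation channel of the endoplasmic reticulum, and Tent2, which lengthens poly(A) tails, rose 2.22-fold and 2.57-fold, Cemip2, a cell-surface hyaluronidase, 2.16-fold and the kinase Prkca 2.34-fold. The calls of Net1, Anxa3, Bpnt1, Dok1, Tmem38b, Tent2 and Cemip2 were lost under median scaling. Those of Usp18, Eef2, Khdrbs1, Slc1a5 and Prkca held under all 3 scalings.

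All 12 genes named for falls on every probe were called under all 3 scalings. Besides Ncapd2, Smc5 and Bcl2a1d they include Scimp, an adaptor of immune receptors in macrophages, at least 1.94-fold lower and below background on all decoy arrays. Dtd1, which clears misloaded transfer RNA, read 8.91, 8.92 and 8.95 in decoy and 10.02, 10.15 and 10.42 in control (2.41-fold). Scaf11, a splicing factor, read 10.34, 10.42 and 10.43 in decoy and 11.53, 11.63 and 11.71 in control (2.35-fold). Sdhaf1, needed to assemble complex II, and Slirp, which stabilises mitochondrial messenger RNA, were 2.17-fold and 2.08-fold lower. Agap3, Ric8b, Bud31 and Phf14 were 2.10-fold, 2.07-fold, 2.26-fold and 2.11-fold lower. For each of the 24 genes the decoy and control arrays did not overlap, as was the case for 54.7% of all features tested.

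**Figure D4:**
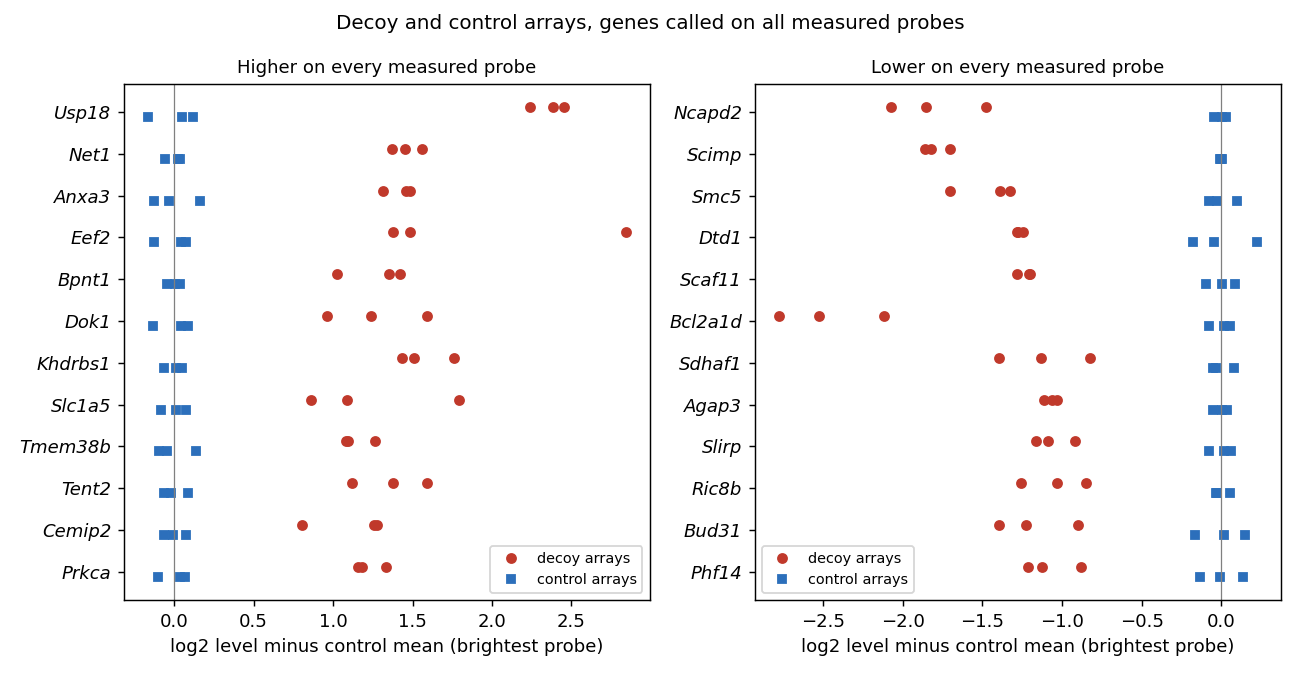
Log2 level on the brightest probe minus the control mean, for the 12 genes higher (left) and the 12 lower (right) on every measured probe. Red circles are the 3 decoy arrays and blue squares the 3 control arrays, and in each gene the 2 sets do not overlap.

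Among genes with 1 measured probe, Scn11a, a voltage-gated sodium channel best known from sensory neurons, stood far above the others. It read 11.41, 11.56 and 10.95 in decoy and 7.32, 7.28 and 7.28 in control, a 16.2-fold rise (difference 4.02, SE 0.18, adjusted p = 1.64e-09). In raw units the signal was 2637, 2754 and 1410 in decoy and 237, 239 and 236 in control, so the decoy arrays were higher before any scaling. Smarca5-ps, a pseudogene whose probe may also match the transcript of its parent Smarca5, was 5.25-fold higher. The largest falls after Bcl2a1b, COX2 and Hspb7 were in Klhdc3 (5.19-fold), S100a4 and Ppp1r14b, an inhibitor of protein phosphatase 1 (4.83-fold).

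The decoy and the knock-down share the control arrays, so the differences between them were tested directly. Against the knock-down 408 features (2.17%) were higher and 279 (1.48%) lower in the decoy. Of these, 89 were also higher and 35 also lower than control, 17 and 4 of them under clone-type names. Under median scaling the counts were 31 and 12, and with scaling on the probes above background on all 9 arrays 36 and 33. They also changed with single arrays, at 910 higher and 652 lower without knock-down replicate 1 and 125 higher and 85 lower without decoy replicate 1. Scn11a led, at 11.41, 11.56 and 10.95 in decoy, 8.66, 8.73 and 9.18 in knock-down and 7.32, 7.28 and 7.28 in control. It was 5.47-fold higher in decoy than in knock-down (adjusted p = 6.88e-07), and the knock-down was itself 2.96-fold above control. Il1rn, Trem3 and Lilrb4a were 2.13-fold, 1.95-fold and 1.88-fold higher in decoy than in knock-down (adjusted p = 0.00062, 0.00228 and 0.0017).

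A few genes moved apart. Rhox5, a homeobox gene of the X chromosome, read 10.67, 10.85 and 10.40 in decoy, 8.79, 8.14 and 8.29 in knock-down and 10.09, 10.07 and 10.18 in control. The chemokine Cxcl14 read 11.11, 10.75 and 10.90 in decoy, 8.99, 8.76 and 8.76 in knock-down and 9.95, 9.95 and 10.21 in control. In both, the decoy was above and the knock-down below control, and the same order held for Clstn3, a synaptic adhesion protein, and Hpgds, which makes prostaglandin D. Decoy exceeded knock-down by 4.70-fold in Rhox5, 4.24-fold in Cxcl14 and 3.54-fold in Clstn3, while Hpgds was below background on all knock-down arrays. Against control the rises were 1.44-fold, 1.85-fold, 1.82-fold and, in Hpgds, 1.84-fold, and all 4 calls were lost under median scaling. That of Rhox5 was also lost without any 1 of the 3 control arrays or without decoy replicate 1 or 2 (adjusted p = 0.0580 to 0.118). The second probe of Cxcl14 differed from control by -0.05. With the mean of its probes Clstn3 differed from control by 0.257 and was not called (adjusted p = 0.108).

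On the lower side, Axl read 8.68, 8.67 and 8.38 in decoy, 9.92, 9.61 and 10.29 in knock-down and 9.98, 9.89 and 10.01 in control. It was 2.58-fold lower in decoy than in knock-down (adjusted p = 0.00026). Acy1, an enzyme that removes acetyl groups from amino acids, read 9.70, 9.78 and 9.35 in decoy, 11.17, 10.96 and 11.50 in knock-down and 10.05, 10.21 and 10.20 in control. Its fall against control was 1.46-fold on the brightest of 3 probes, all lower. That call was lost with control replicate 2, control replicate 3 and decoy replicate 3 left out in turn (adjusted p = 0.0671, 0.0639 and 0.0694). Ctsf, a lysosomal cathepsin, was 2.25-fold lower in decoy than in knock-down and 1.70-fold lower than control. Prr7, a membrane adaptor, and Smtn, a smooth muscle protein, were below background on all decoy arrays, and Smtn on all control arrays too. Their calls against control were lost with any 1 control array, decoy replicate 1 or decoy replicate 2 left out, with no background correction, and with the authors' deposited processed values (adjusted p = 0.0544 for Prr7 and 0.0598 for Smtn). Their signs against control turned with scaling on the probes above background on all 9 arrays (0.383 and 0.419). In all, 13 features were higher in decoy and lower in knock-down against control, and 6 were the reverse.

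**Figure D5:**
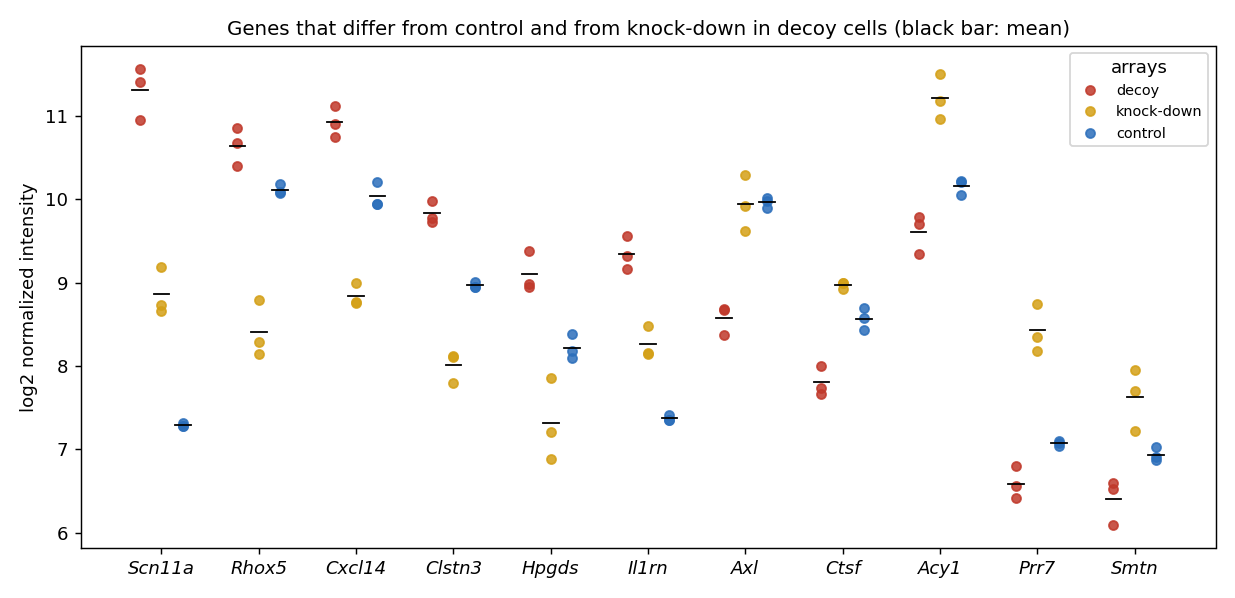
Log2 normalised intensity of 11 genes that differ between decoy and knock-down, on each decoy, knock-down and control array, with a black bar at the mean of 3 arrays. Scn11a and Il1rn are highest in decoy and intermediate in knock-down, whereas Rhox5, Cxcl14, Clstn3 and Hpgds are lowest in knock-down.

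Nfat5 read higher in decoy than in knock-down on its brightest probe, by 0.54 (adjusted p = 0.0355). Of 41 interferon-stimulated genes 2 were higher and 0 lower in decoy than in knock-down, and their median difference from control was 0.57 in decoy and 0.46 in knock-down. Of the 7 mitochondrial DNA transcripts 3 were higher in decoy than in knock-down and 0 lower (median differences from control of -0.92 in decoy and -1.32 in knock-down).

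Of the 4 B cell, 7 mast cell, 6 endothelial and 3 erythroid markers measured, 0 were above background. None of the B cell and mast cell markers was called, 1 endothelial marker was higher and 1 lower, and 1 erythroid marker was lower. Of 5 NK cell markers 1 was above background, 3 were called higher and 1 lower (median 0.57), and their summed linear intensity was 643 to 732 in decoy and 533 to 581 in control. Of 7 T cell markers 1 was called higher and 0 lower, with sums of 4714 to 6036 in decoy and 5797 to 6400 in control. Of 6 dendritic cell markers 0 were higher and 1 lower (1457 to 1930 in decoy, 1582 to 2043 in control), and of 3 epithelial markers 0 were higher and 2 lower (331 to 357 in decoy, 402 to 433 in control). Of 6 neutrophil markers 2 were above background, with a summed linear intensity of 1060 to 1178 in decoy and 744 to 780 in control. Their differences had a median of 0.19 and reached down to -0.46, and 1 of the 6 was called. That one, S100a8, a calcium-binding protein abundant in neutrophils, rose 2.87-fold (9.01, 9.06 and 9.09 in decoy, 7.44, 7.62 and 7.54 in control). Of 8 fibroblast markers 1 was above background and 2 were called higher, and their sum was 1212 to 1431 in decoy and 933 to 966 in control, with smooth muscle actin Acta2 1.84-fold higher (not called under median scaling or with the mean of its probes). Fewer cells of a type and less RNA per cell cannot be told apart in such samples. The part of these markers in the changes above was not tested.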

How the data were processed

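RNA from RAW264.7 cells in 3 decoy, 3 knock-down and 3 control samples was hybridised to Illumina bead arrays, and samples were grouped by title. A label field headed with a cytokine treatment holds only the group descriptions and was not used. The authors deposited raw probe intensity values, with 2042 blank rows that were dropped and no detection p-values, and a table of processed log2 values. R 2.9.1 is named per the submitters' processing notes, and how the processed values were normalised is not given in the sources used. The design named background correction from detection p-values first, and without them its fallback was used. Signals were corrected with normexp (offset 50), log2-transformed and quantile-normalised over 9 arrays in limma 3.58.1 (R 4.3.3). In the platform annotation 34885 probes had 1 symbol, 18 had several and 10378 had none. Background ended 3 SDs (of the lower side) above each array's modal log2 signal, and 60000 raw units or more counted as saturated. An "at least" fold sets the brighter group against the lowest signal above background on each dim array, or takes a saturated group at its value. A model with 3 group means (lmFit, eBayes, two-sided, Benjamini-Hochberg) gave all tests, and the number of arrays limits the precision. Same-numbered decoy and control samples did not deviate together (correlations 0.031, -0.040 and -0.032), so no block was used. On simulated data with 200 of 18830 features changed, 23% of 1.5-fold and 68% of 2-fold changes were recovered, with 8 false calls. The simulation had no difference in array brightness and no normalisation step, and far fewer changed features than the 6530 called here. Its recovery and false calls therefore do not carry over to these arrays.

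The members, gene lists and tests were chosen with earlier results of these data known. Named genes are Nfat5, the 12 strongest genes each way with all probes called, the 6 largest each way with 1 probe and no overlap, up to 4 called members of smallest p per list, and the 5 highest and 5 lowest against knock-down that were also called against control. Further members of the NFAT5 and interferon lists, genes whose promoters are shown, CYTB and Bcl2a1c were added after their values were seen. Scaling on probes above background on all arrays was also added after the data were seen. The decoy oligonucleotide's own sequence was not used here.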

Additional observations from a re-analysis of the deposited data

Results flagged for a closer look

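Decoy and knock-down share their control arrays, and the direct test between them was used to pick out the 5 highest and 5 lowest genes in decoy that were also called the same way against control. Scn11a was higher in decoy than in knock-down by 2.45 in log2, Rhox5 by 2.23, Cxcl14 by 2.09, Clstn3 by 1.82 and Hpgds by 1.79. The adjusted p was 6.88e-07, 1.76e-06, 6.47e-07, 1.76e-06 and 0.00015 in that order (limma). The differences of Prr7 (-1.84), Acy1 (-1.60), Axl (-1.37), Smtn (-1.22) and Ctsf (-1.17) were negative, with adjusted p of 7.17e-06, 4.77e-05, 0.00026, 0.00147 and 0.000215. Prr7 and Smtn were below background on all decoy arrays and Hpgds on all knock-down arrays, so the fitted values of these 3 genes are no measured size and have no rank among the others. The calls of Prr7 and Smtn against control were lost with any 1 control array left out. Knock-down replicates differed in brightness, with an upper quartile of raw signals of 209 to 257 units, and the part of that in these differences was not tested.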

How the results depend on the processing

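Counts of calls differed between scalings. Median scaling gave 1285 higher and 8172 lower against control, 6 and 1336 with every probe called, and 31 higher and 12 lower against knock-down. Scaling on probes above background on all arrays, added after the data were seen, gave 10168 and 1569, 290 and 78, and 36 and 33. Array weights gave 270 higher and 295 lower with every probe called, and 245 higher and 130 lower against knock-down. With 1 array left out in turn, calls against control ranged over 2028 to 2833 higher and 1871 to 3053 lower, and with every probe called over 114 to 152 and 79 to 162. The low ends came from leaving out any 1 control array (2061, 2028 and 2047 higher, 1936, 1871 and 1871 lower). Against knock-down the ranges were 125 to 910 higher and 85 to 652 lower, with the low ends without decoy replicate 1 and the high ends without knock-down replicate 1. The replicate number as a block, which does not pair these samples, gave 3024 and 3280, 165 and 183 with every probe called, and 361 and 222 against knock-down. Nfat5 ranged from -0.54 to -0.43 with arrays left out, its adjusted p was 0.0651 without control replicate 1, and the mean of its probes was 0.149 (adjusted p = 0.336). Signs turned under median scaling for Sumo3 (-0.0241), Vegfc (-0.0485), Aim2 (-0.0491), Lilrb4a (-0.0659), Irf9 (-0.0845), Cxcl14 (-0.114), Clstn3 (-0.125), Tlr4 (-0.152), Rhox5 (-0.469) and Slc38a2 (-0.698). They turned under scaling on probes above background on all arrays for Aqp1 (0.244), Prr7 (0.383), Smtn (0.419), Hspa1a (0.638) and Slc5a3 (0.874). The mean of the probes turned Irgm1 (0.128) and ended the calls of Clstn3, Smtn, Cxcl2, Lyz2, Sirpa, Clec5a, Mcm7, Acta2 and Bcl2a1c, and no probe filter turned Aqp1 (0.121). Of 140 called genes that were compared, 99 were called under all 10 alternatives that leave out no array, 125 under all but median scaling, and 132 with each array left out. These 140 are genes of the text, picked mostly for small p or large change in these same data. Their counts therefore do not carry over to all called features. The cause of these changes was not tested. Dim arrays limit genes near background to bounds.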
